A study of Homo sapiens with 18 samples.

Results

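In all, 10 genes of the cytosolic and mitochondrial heat shock chaperone system were followed across all 18 RNA-sequencing libraries: the transcription factor HSF1, the HSP70 proteins HSPA1A, HSPA1B and HSPA8, the HSP70 co-chaperones HSPH1 and DNAJB1, the HSP90 proteins HSP90AA1 and HSP90AB1, and the mitochondrial pair HSPD1 and HSPE1. The genes were taken by symbol from their Ensembl identifiers. All 10 were in the count table of 58735 genes, and all 10 were among the 17346 genes that passed a filter on low counts. The cells were the human leukaemia line RPMI-8402, established from T-cell acute lymphoblastic leukaemia, carrying either a non-targeting control guide (NT, genotype given as WT) or a PIK3R1 knockout (KO). PIK3R1 encodes p85alpha, which stabilises and restrains the catalytic subunits of phosphoinositide 3-kinase. For 24 h, each genotype received the vehicle DMSO, the NOTCH inhibitor CB-103, which targets the NOTCH transcription complex, or GSI, the gamma-secretase inhibitor LY3039278. Each of the 6 groups held 3 libraries. The sources used here give neither the doses nor the number of knockout clones. Nothing in the labels says that replicates were separate cultures, so p-values measure only the spread between these libraries, which may be technical.

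Heat shock chaperones bind unfolded or partly folded proteins. HSP70 holds exposed hydrophobic stretches in a cycle of ATP binding and hydrolysis, which J-domain proteins such as DNAJB1 start and HSP110 proteins such as HSPH1 help to reset by exchanging the nucleotide. HSP90 takes over more mature clients, among them many kinases and transcription factors, while HSPD1 (HSP60) and its lid HSPE1 (HSP10) form a folding chamber in the mitochondrial matrix. When unfolded protein accumulates in the cytosol, HSF1 is released from chaperones, forms trimers and binds heat shock elements, arrays of the 5-base unit NGAAN in alternating orientation. HSPA1A and HSPA1B are strongly stress-inducible and lack introns, whereas HSPA8 and HSP90AB1 are the forms made at a high level in unstressed cells.

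Library totals ran from 30416183 to 43558387 estimated reads. Levels are given as CPM, counts scaled to library size with TMM factors, or as TPM, which also corrects for transcript length. All 9 T-lineage markers had a group mean of at least 1 CPM in some group, and none of the 5 erythroid markers did, with HBB and HBA1 at 0. PIK3R1 itself, which checks the labels, stood at 44.3, 45.5 and 42.5 CPM in NT DMSO and at 23.1, 21.4 and 23.2 CPM in KO DMSO. Under GSI it was 1.93-fold lower in KO than in NT cells. With CB-103 the NT libraries held 31.1 ± 2.2 CPM and the KO libraries 27.8 ± 2.0 CPM (SD, n = 3), and the groups overlapped (edgeR quasi-likelihood test, adjusted p = 0.17), so PIK3R1 mRNA did not separate the genotypes there. The NOTCH targets HES1, DTX1 and MYC fell with both inhibitors in both genotypes, by 3.10-fold (MYC, KO cells with GSI) to 10.9-fold (DTX1, NT cells with GSI).

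The promoters of the chaperone genes are shown because HSF1 is known to act through sites in such promoters. Whether the sites relate to the responses was not tested. RefSeq promoter windows on GRCh38.p14 ran from 250 bases before to 50 bases after each annotated start. The search covered 15 windows of 9 of the 10 genes. HSF1 was not part of it, so its promoter is not described here. Both strands were searched for a 3-unit heat shock element, written GAANNTTCNNGAA or TTCNNGAANNTTC, for its 2-unit pieces GAANNTTC and TTCNNGAA, and for the E-box CACGTG. Each 3-unit match contains both 2-unit pieces. Only exact matches to these letters were sought, so elements with other bases in a unit were not found. The stretches below run 5′ to 3′ on the gene's strand, with the matches in capitals.
HSPA1A: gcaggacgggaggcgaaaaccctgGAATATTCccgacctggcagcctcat
HSPA1B: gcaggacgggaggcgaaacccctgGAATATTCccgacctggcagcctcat
HSPA8: gggccccTTCTGGAAGGTTCtaagataggg
DNAJB1: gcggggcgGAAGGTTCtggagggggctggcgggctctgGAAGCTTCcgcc
HSP90AA1: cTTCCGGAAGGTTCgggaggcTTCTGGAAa
HSP90AB1: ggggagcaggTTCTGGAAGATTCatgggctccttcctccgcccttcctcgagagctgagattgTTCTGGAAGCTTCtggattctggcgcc
HSPD1: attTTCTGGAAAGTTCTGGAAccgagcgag
HSPE1: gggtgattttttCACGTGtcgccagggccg

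A 3-unit element lay in windows of 4 members (HSPA8, HSP90AA1, HSP90AB1 and HSPD1), against 0.608% of the 27305 genes in the RefSeq table and 0.490% of its 35116 windows. GAANNTTC lay in windows of 7 members, against 8.21% of genes and 6.77% of windows, and TTCNNGAA in windows of 4, against 9.46% of genes and 7.74% of windows. HSPH1 had no exact match in its window, and inexact units were not sought. The stretches of HSPA1A (chr6:31815413-31815462) and HSPA1B (chr6:31827609-31827658) ended 81 and 80 bases before their RefSeq starts and carried the same 2-unit match. The DNAJB1 stretch (chr19:14518433-14518482, minus strand) held a pair of 2-unit matches within 13 to 62 bases upstream of DNAJB1-201, its main transcript in these libraries. The HSPA8 stretch (chr11:123062169-123062198, minus strand) lay 33 to 62 bases before its RefSeq start but 837 to 866 bases upstream of HSPA8-201, its main transcript, and overlapped an annotated exon. Its window held a further 3-unit match nearer its far end. HSPD1 and HSPE1 lie head to head: the HSPD1 stretch (chr2:197500059-197500088, minus strand) lay 12 to 41 bases upstream of HSPD1-202, and the E-box of HSPE1 (stretch chr2:197500345-197500374) was the same site, at 197500357 to 197500362, that a second HSPD1 window held on the other strand. E-boxes lay in windows of 8.77% of genes and in 7.26% of windows. For HSP90AA1 (chr14:102087104-102087133, minus strand) and HSP90AB1 (chr6:44247768-44247857) the matches lay inside the gene, 58 to 87 and 681 to 770 bases downstream of the start of the main transcript. A match is a description of the letters only; binding was not measured.

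In TPM, HSPA8 was the most abundant of the 10 in every group, with 2022 ± 145 TPM (mean and SD, n = 3) in NT DMSO and 2400 ± 252 TPM in KO CB-103. In NT DMSO the order went on with HSP90AB1 at 966 and HSP90AA1 at 918 TPM, whose libraries overlapped, then HSPD1 at 600, HSPE1 at 471, DNAJB1 at 72.4, HSPH1 at 66.0, HSPA1A at 56.8, HSF1 at 50.3 and HSPA1B at 35.2 TPM. None of the other neighbours in that order overlapped. Ranked by mean TPM over all libraries, HSPA8 was at place 95 of all genes, HSP90AA1 at 143, HSP90AB1 at 145 and HSF1 at 3103. With CB-103, HSPA1A moved above HSPE1 in NT cells (271 against 247 TPM), without overlap, and in KO cells the same pair overlapped (364 and 334 TPM). Summed over the 10 genes, the level was 5259 ± 266 TPM in NT DMSO, 5527 ± 176 in NT CB-103, 4277 ± 261 in NT GSI, 5018 ± 344 in KO DMSO, 7303 ± 598 in KO CB-103 and 3924 ± 225 in KO GSI. The mean sum was thus highest in KO cells given CB-103, and lowest in KO cells given GSI, whose libraries overlapped those of NT GSI. In bulk RNA, fewer cells that make an RNA and less of it per cell cannot be told apart.

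**Figure D1:**
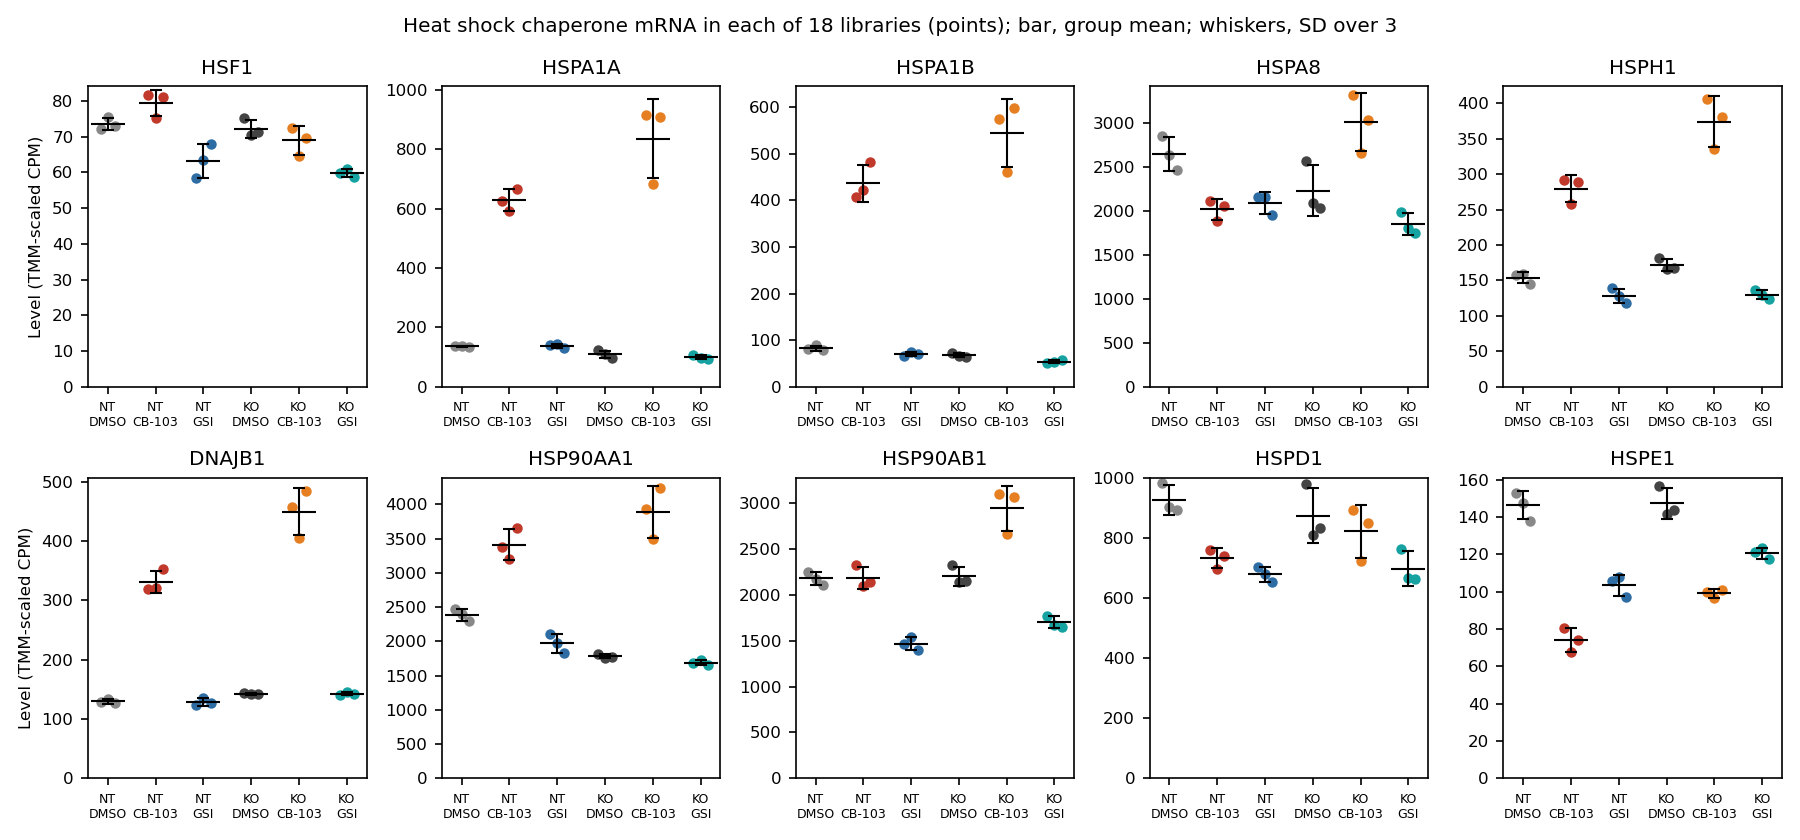
Level of each of the 10 genes (vertical axis, CPM with TMM scaling, starting at 0) in the 6 groups (horizontal axis). Points are the 18 libraries, the bar is the group mean and whiskers are the SD over 3 libraries; HSPA1A reaches 593 to 667 CPM in NT CB-103 and 682 to 916 CPM in KO CB-103, against at most 143 CPM in the other groups.

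The first comparison asked how NT cells responded to CB-103. The stress-inducible cytosolic chaperones rose, HSPA1A and HSPA1B most, followed by DNAJB1, HSPH1 and HSP90AA1, while HSPA8 and the mitochondrial pair HSPD1 and HSPE1 fell. Of the 10 members 5 were called higher and 3 lower, where 29.5% of all genes tested were called higher and 28.7% lower (edgeR quasi-likelihood test, adjusted p under 0.05). The members' median log2 fold change was 0.31, beside 0.04 over all genes.

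HSPA1A (ENSG00000204389, chr6:31815464-31817946, hg38) stood at 136, 139 and 134 CPM in NT DMSO and at 625, 593 and 667 CPM in NT CB-103. HSPA1B (ENSG00000204388, chr6:31827735-31830255) went from 80.6, 88.8 and 79.1 to 407, 422 and 481 CPM. Every CB-103 library lay far above every DMSO library for both genes. Of the 75-base windows of HSPA1A-201, 71.2% also occur in HSPA1B, so that reads of this length often cannot be assigned to one of the copies, and 920 exon bases of HSPA1B lie in a same-strand transcript gene that was itself at 0.306 CPM. Split values for each copy are therefore uncertain. Their sum was 216, 228 and 213 CPM in DMSO and 1031, 1015 and 1148 CPM in CB-103, a 4.86-fold rise (log2 fold change 2.28 ± 0.09 (SE), adjusted p = 4.8e-13).

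DNAJB1 (ENSG00000132002, chr19:14514770-14529770), the J-domain protein that hands clients to HSP70, rose from 128, 134 and 127 CPM to 319, 322 and 352 CPM. HSPH1 (ENSG00000120694, chr13:31134974-31162388), an HSP110 that exchanges nucleotide on HSP70, rose from 158, 159 and 145 CPM to 292, 257 and 289 CPM. HSP90AA1 (ENSG00000080824, chr14:102080738-102139699), the inducible HSP90, rose from 2471, 2401 and 2298 CPM to 3386, 3200 and 3653 CPM. In all 3 genes the groups were apart, and the log2 fold changes were 1.35 ± 0.06, 0.86 ± 0.08 and 0.51 ± 0.07 (adjusted p = 1.7e-12, 1.8e-08 and 2.8e-06). HSP90AB1 (ENSG00000096384, chr6:44246166-44253888), the constitutive HSP90, overlapped between 2250, 2178 and 2112 CPM in DMSO and 2324, 2094 and 2136 CPM in CB-103. The 95% interval of its log2 difference ran from -0.13 to 0.14.

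HSPA8 (ENSG00000109971, chr11:123057489-123063230), the constitutive HSP70, fell from 2853, 2641 and 2466 CPM to 2114, 1881 and 2059 CPM (log2 fold change -0.40 ± 0.09, adjusted p = 0.0013). All CB-103 libraries were below all DMSO libraries. HSPE1 (ENSG00000115541, chr2:197499994-197503457) fell from 153, 148 and 138 CPM to 80.7, 67.7 and 74.0 CPM, a 1.97-fold drop (log2 fold change -0.98 ± 0.06, adjusted p = 2.7e-10). HSPD1 (ENSG00000144381, chr2:197486581-197516737) fell less, from 985, 902 and 893 CPM to 760, 696 and 741 CPM (log2 fold change -0.34 ± 0.08, adjusted p = 0.0018). The HSPD1 and HSPE1 genes share 281 exon bases on opposite strands, and the authors' counting is not stated to use strand. Of the 75-base windows of HSPE1-202, the main HSPE1 transcript, 31.0% also occur in other genes. HSPE1-MOB4 holds 24.0% of them and was itself at 0.851 CPM. For HSPD1-202 the share found in other genes was 10.1%. HSF1 (ENSG00000185122, chr8:144291591-144314722), the regulator itself, was 72.0, 75.5 and 73.1 CPM in DMSO and 81.6, 75.2 and 81.2 CPM in CB-103, with overlap and no call (log2 difference 0.11, 95% interval -0.01 to 0.23); with no scaling factor it was called at 0.17.

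None of the 8 calls was lost when any single library was left out. Among markers of other cells, the summed level of 6 myeloid genes was 15.5 to 16.7 CPM in NT CB-103 against 5.12 to 6.48 CPM in NT DMSO, and 33.3 to 39.1 CPM in KO CB-103 against 4.77 to 5.43 CPM in KO DMSO. Of these genes, 3 reached 1 CPM in some group, CD68 led with 34.5 CPM in KO CB-103, and CSF1R and CD14 were at or near 0 in all groups. The 5 adherent-cell markers, nearly all of it COL1A1, summed to 15.4 to 17.9 CPM in NT DMSO and 3.72 to 4.96 CPM in NT CB-103. Mitochondrially encoded genes took a share of the counts that moved with CB-103 too, from 3.09% to 3.72% in NT DMSO libraries to 4.73% to 5.47% in NT CB-103, and from 1.69% to 1.88% in KO DMSO to 1.89% to 2.69% in KO CB-103. The part of these markers and of that share in the chaperone changes was not tested.

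The same comparison in KO cells gave larger rises and fewer falls. HSPA1A, HSPA1B, DNAJB1, HSPH1 and HSP90AA1 rose, and so did HSPA8 and HSP90AB1, leaving HSPE1 as the member that fell. Of the 10 members 7 were called higher and 1 lower, where 24.9% of all genes were called higher and 23.7% lower. The members' median log2 fold change was 0.78, beside -0.01 over all genes, and 5 members changed by more than 2-fold, against 3 in NT cells. KO CB-103 replicate 2 was the lowest of its 3 libraries for all 10 members; leaving it out ended none of these calls.

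The summed level of HSPA1A and HSPA1B was 195, 175 and 163 CPM in KO DMSO and 1490, 1144 and 1507 CPM in KO CB-103, a 7.76-fold rise (log2 fold change 2.96 ± 0.09, adjusted p = 5.4e-14). DNAJB1 rose from 143, 142 and 142 CPM to 458, 406 and 484 CPM, and HSPH1 from 182, 166 and 168 CPM to 406, 335 and 380 CPM. HSP90AA1 rose from 1818, 1758 and 1770 CPM to 3926, 3499 and 4243 CPM. Treated and untreated libraries were well apart in all of these, with 3.16-fold, 2.17-fold and 2.18-fold rises for DNAJB1, HSPH1 and HSP90AA1. HSPA8 rose from 2566, 2096 and 2030 CPM to 3324, 2663 and 3039 CPM (log2 fold change 0.43 ± 0.09, adjusted p = 7.8e-04). Its lowest treated library was just above the highest DMSO library.

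HSP90AB1 rose in KO cells from 2323, 2139 and 2148 CPM to 3104, 2660 and 3068 CPM, without overlap (log2 fold change 0.42 ± 0.06, adjusted p = 2.1e-05). HSPE1 fell from 157, 142 and 144 CPM to 99.96, 96.6 and 101 CPM (log2 fold change -0.57 ± 0.06, adjusted p = 4.7e-07), with a clear gap between the groups. HSPD1 overlapped, at 980, 810 and 834 CPM in DMSO and 894, 724 and 851 CPM in CB-103 (95% interval of the log2 difference -0.27 to 0.09). HSF1 overlapped too, at 75.1, 70.4 and 71.2 CPM and 72.4, 64.6 and 69.7 CPM. The regulator's own mRNA was thus not called in either genotype with CB-103.

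**Figure D2:**
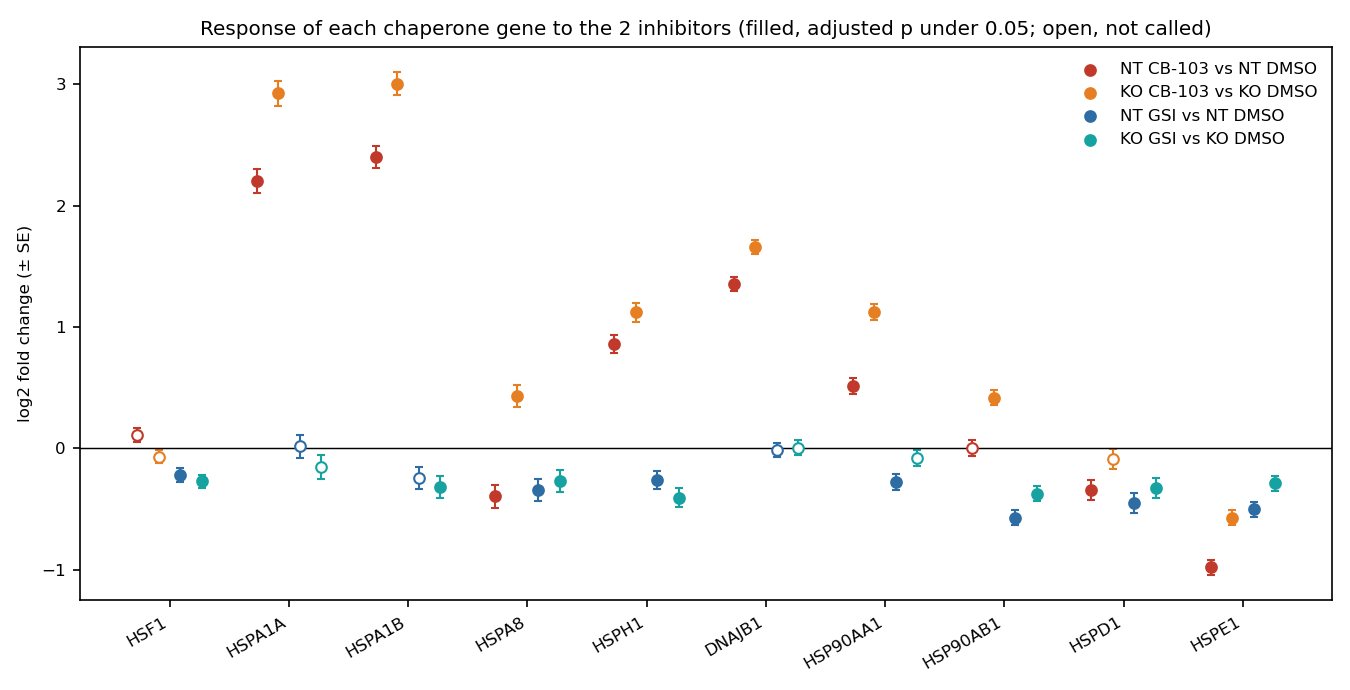
Log2 fold change (vertical axis, with SE) of each gene (horizontal axis) for each inhibitor against DMSO in each genotype, from 3 libraries a group. Filled points were called at an adjusted p under 0.05; HSPA8 lies at -0.40 in NT and 0.43 in KO cells with CB-103, and with GSI every called point is below 0.

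Whether the CB-103 response differed between the genotypes was tested by the interaction, the KO response minus the NT response. It was positive and called for 7 of the 10 members, and for 0 in the other direction, where 10.3% of all genes were called higher and 4.34% lower. At an unadjusted p under 0.05, 9 members were higher and 1 lower in this contrast, and the DESeq2 Wald test called 7 and 0. With no scaling factor the split over all genes moved from 1780 higher and 753 lower to 1242 higher and 1404 lower, HSF1 was called lower at -0.26, and the DNAJB1 call was lost at 0.22 (adjusted p = 0.091). The direction of all 7 called members stayed positive under that setting. The mitochondrial share given above was higher with CB-103 in both genotypes and was lower in KO than in NT libraries with each of DMSO and CB-103; its part in the interaction, and in the comparison of KO with NT under CB-103, was not tested.

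HSPA8 had the largest interaction, 0.83 ± 0.13 (adjusted p = 4.1e-04), having fallen in NT and risen in KO cells. For the summed HSPA1A and HSPA1B it was 0.68 ± 0.12 (adjusted p = 0.0013), a 1.60-fold larger response in KO cells. The log2 difference of KO from NT for this sum was -0.30 with DMSO and 0.37 with CB-103, so part of the interaction lay in the DMSO libraries. HSP90AA1 followed with 0.61 ± 0.09 (adjusted p = 3.3e-04). Its log2 difference of KO from NT was -0.42 with DMSO and 0.19 with CB-103, so much of this interaction lay in the DMSO libraries. Smaller interactions were called for HSP90AB1 (0.42 ± 0.09, adjusted p = 0.0040), HSPE1 (0.41 ± 0.09, adjusted p = 0.0044), whose fall was the smaller in KO cells, and DNAJB1 (0.31 ± 0.08, adjusted p = 0.018). The DNAJB1 call was lost without any 1 of 6 libraries, among them KO CB-103 replicate 3 (0.24, adjusted p = 0.090) and NT CB-103 replicate 2 (0.28, adjusted p = 0.072). HSPH1 (0.26) and HSPD1 (0.25) were not called, but with the replicate number as a block both were, at adjusted p = 0.030 and 0.023, and HSPH1 was also called without KO CB-103 replicate 2 (0.32, adjusted p = 0.044). HSF1, at -0.18, was the member with a negative estimate and was not called.

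**Figure D3:**
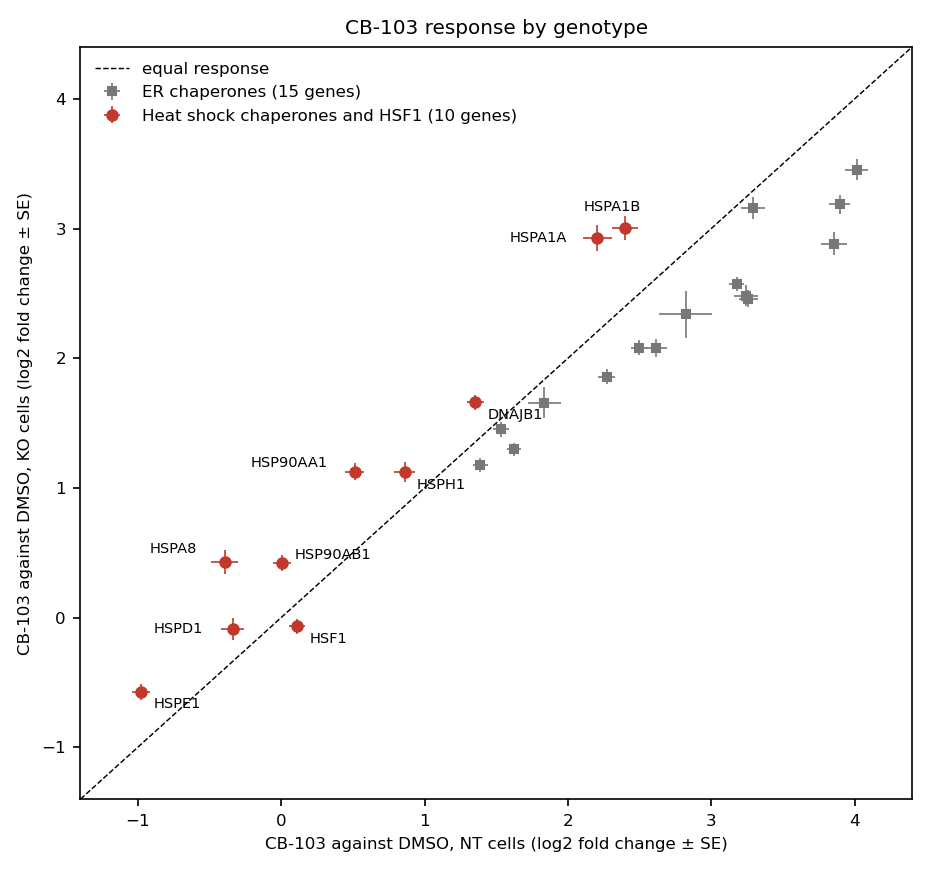
CB-103 response in NT cells (horizontal axis, log2 fold change with SE) against that in KO cells (vertical axis, log2 fold change with SE). Circles are the 10 members and squares are 15 chaperones of the endoplasmic reticulum, with a dashed line at equal response; all members but HSF1 lie above the line and all 15 endoplasmic reticulum genes lie below it.

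Chaperones of the endoplasmic reticulum, which serve secreted and membrane proteins under a separate stress pathway, differed between the genotypes in the opposite direction. All 15 listed genes rose with CB-103 in NT cells (median log2 fold change 2.82) and in KO cells (median 2.34). Their interaction was called lower for 10 of the 15, with a median of -0.48 beside 0.01 over all genes. DNAJB9, a J-domain protein of the endoplasmic reticulum, rose by 4.01 ± 0.08 in NT and by 3.45 ± 0.08 in KO cells. HERPUD1, a component of the degradation machinery there, rose by 3.89 ± 0.08 and 3.19 ± 0.07. These 15 genes and the 10 members were chosen with results known, and the interaction test was run gene by gene.

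Compared directly under CB-103, KO libraries had higher levels than NT libraries for 8 members and a lower level for HSF1, where 20.4% of all genes were called higher and 16.5% lower. HSPA8 stood apart by 0.58 ± 0.09 on the log2 scale (adjusted p = 9.6e-05), DNAJB1 by 0.44 ± 0.06, HSP90AB1 by 0.43 ± 0.06, HSPE1 by 0.42 ± 0.06 and HSPH1 by 0.42 ± 0.07. The sum of HSPA1A and HSPA1B was 1.30-fold higher in KO (adjusted p = 0.0024), although the lowest KO library, 1144 CPM, was below the highest NT library, 1148 CPM. HSP90AA1 was called at 0.19 with overlapping libraries. That call was lost without KO CB-103 replicate 1 or 3 or NT CB-103 replicate 1 or 2 (0.10 to 0.18, adjusted p = 0.31 to 0.073), and HSPA1B, at 0.32, was lost without KO CB-103 replicate 1 or 3 or NT CB-103 replicate 2 (0.22 to 0.27). HSPD1, at 0.17, was not called, but was with the replicate block (adjusted p = 0.017) and without KO CB-103 replicate 2 (0.23, adjusted p = 0.044). The HSF1 difference of -0.20 (adjusted p = 0.0092) was -0.10 (adjusted p = 0.33) from sums of the transcript estimates.

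With GSI, NT cells showed no rise of any member and a fall of most. HSP90AB1 fell most, then HSPE1 and HSPD1, and HSPA8, HSP90AA1, HSPH1 and HSF1 fell by smaller amounts. Of the 10 members, 7 were called lower and 0 higher, where 9.67% of all genes were called higher and 15.0% lower; 0 were higher at an unadjusted p under 0.05 or with DESeq2, which called 8 lower. With no scaling factor the split over all genes moved from 1677 higher and 2600 lower to 2679 higher and 1848 lower. The members' median log2 fold change was -0.27, beside 0.01 over all genes. Within a genotype this comparison and that of CB-103 share the same DMSO libraries, so their values are given side by side only.

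HSP90AB1 went from 2250, 2178 and 2112 CPM in NT DMSO to 1462, 1538 and 1397 CPM in NT GSI, with the groups far apart (log2 fold change -0.57 ± 0.06, adjusted p = 2.5e-06). HSPE1 was 106, 108 and 97.2 CPM with GSI (-0.50 ± 0.06, adjusted p = 1.1e-05) and HSPD1 703, 680 and 654 CPM (-0.45 ± 0.08, adjusted p = 6.3e-04). Both lay wholly below their DMSO libraries. HSPA8 fell by 0.34 on the log2 scale, HSP90AA1 by 0.28, HSPH1 by 0.26 and HSF1 by 0.22. The HSP70 pair did not follow: the HSPA1A and HSPA1B sum was 205, 217 and 202 CPM with GSI, overlapping DMSO (95% interval of the log2 difference -0.27 to 0.11), and DNAJB1 overlapped as well (-0.14 to 0.11). HSPA1B alone, at -0.24 (adjusted p = 0.057), was called with the replicate block (adjusted p = 0.046) and without NT GSI replicate 2 (-0.30, adjusted p = 0.041). The call of HSPA8 did not survive the loss of NT DMSO replicate 1 (-0.29, adjusted p = 0.059), nor that of replicate 3 of NT GSI (-0.30, adjusted p = 0.058). HSPH1 was lost without NT DMSO replicate 1 or 2 or NT GSI replicate 3 (adjusted p = 0.064, 0.069 and 0.086), and with transcript sums (adjusted p = 0.056). HSF1 was lost without NT GSI replicate 1 (-0.16, adjusted p = 0.060), with no scaling factor (-0.14, adjusted p = 0.068), with transcript sums (-0.15, adjusted p = 0.16) and with replicates 2 and 3 alone (-0.17, adjusted p = 0.057). NT GSI was also the group with the widest share of counts from mitochondrially encoded genes, 1.90% to 5.51%, and the part of that share in these values was not tested.

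In KO cells GSI again lowered 7 members and raised 0, where 9.69% of all genes were called higher and 9.58% lower; 0 were higher at an unadjusted p under 0.05 or with DESeq2. HSP90AB1 went from 2323, 2139 and 2148 CPM to 1774, 1674 and 1653 CPM (log2 fold change -0.37 ± 0.06, adjusted p = 3.5e-04). HSPH1 went from 182, 166 and 168 CPM to 136, 130 and 123 CPM (-0.41 ± 0.08, adjusted p = 9.3e-04). Neither gene had overlapping groups. HSPD1 (-0.33), HSPE1 (-0.29), HSF1 (-0.27), HSPA1B (-0.32) and HSPA8 (-0.27, adjusted p = 0.049) were the other called members. The HSPA1A and HSPA1B sum, at 159, 150 and 151 CPM, was not called (-0.21, adjusted p = 0.11). HSP90AA1, at 1681, 1724 and 1660 CPM, lay just below its DMSO libraries and was not called either, and DNAJB1 overlapped at 141, 146 and 142 CPM. Without KO DMSO replicate 1 the calls of HSPA8 (-0.16, adjusted p = 0.27), HSPD1 (-0.24, adjusted p = 0.065) and HSPA1B (-0.27, adjusted p = 0.085) were lost, leaving 4 lower. Without KO GSI replicate 2 the same number was left, and HSPA8 was also lost without KO DMSO replicate 2 or 3 or KO GSI replicate 3 (adjusted p = 0.084, 0.057 and 0.17), HSPD1 without KO GSI replicate 3 (0.053), and HSPA1B without KO DMSO replicate 2 or KO GSI replicate 1 (0.057 and 0.070).

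The GSI response of the members was not found to differ between the genotypes. The interaction was called for 0 of 10 in either direction, where 2.10% of all genes were called higher and 0.692% lower; at an unadjusted p under 0.05, 2 were higher and 0 lower, and DESeq2 called 0. With no scaling factor the split over all genes moved from 364 higher and 120 lower to 96 higher and 218 lower. Estimates ran from -0.17 for HSPA1A (95% interval -0.47 to 0.13) to 0.21 for HSPE1 (0.02 to 0.40). The intervals for HSP90AA1 (-0.01 to 0.40) and HSP90AB1 (0.01 to 0.39) reached about as high.

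Without inhibitor, the members called between KO and NT cells were all lower in KO. HSP90AA1 was lower in KO DMSO, at 1818, 1758 and 1770 CPM against 2471, 2401 and 2298 CPM in NT DMSO, with no overlap (log2 fold change -0.42 ± 0.07, adjusted p = 1.4e-04). The HSPA1A and HSPA1B sum was lower by 0.30 (adjusted p = 0.019), each KO library being below each NT library. Of the 10 members 3 were called lower and 0 higher, where 9.78% of all genes were called higher and 11.7% lower; 2 were higher at an unadjusted p under 0.05, and DESeq2 called 0 higher and 4 lower. With no scaling factor the split over all genes moved from 1697 higher and 2023 lower to 2530 higher and 1573 lower, and HSPH1 (0.22) and DNAJB1 (0.19) were then called higher. With the replicate block HSPA8 was called lower (-0.25, adjusted p = 0.0058, against 0.064 without) and HSPH1 higher (0.16, adjusted p = 0.0498). HSPA8 was also called without KO DMSO replicate 1 (-0.36, adjusted p = 0.0085). The sum lost its call without NT DMSO replicate 2 (-0.27, adjusted p = 0.074), KO DMSO replicate 2 (-0.30, adjusted p = 0.062) or KO DMSO replicate 3 (-0.26, adjusted p = 0.096), and HSPA1A alone without any 1 library but KO DMSO replicate 1 (adjusted p = 0.058 to 0.14). HSPA1B alone lost its call without the same 3 libraries as the sum (adjusted p = 0.090 to 0.12) and with no scaling factor (-0.23, adjusted p = 0.072). HSF1, HSP90AB1, HSPD1 and HSPE1 overlapped between the genotypes, with log2 differences from -0.08 to 0.02.

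Under GSI, KO and NT libraries differed in both directions: 3 members were called higher in KO and 3 lower, where 18.8% of all genes were called higher and 15.0% lower. The HSPA1A and HSPA1B sum was 159, 150 and 151 CPM in KO and 205, 217 and 202 CPM in NT cells, 1.36-fold lower without overlap (adjusted p = 9.6e-04). HSP90AA1 was lower by 0.22, a call lost without NT GSI replicate 1 or 2 or KO GSI replicate 3 (adjusted p = 0.083, 0.074 and 0.054). HSPE1 (0.22) and HSP90AB1 (0.21) were higher, the latter lost without KO GSI replicate 1 (0.18, adjusted p = 0.059). DNAJB1 (0.16, adjusted p = 0.0498) lost its call without any 1 of 5 of the 6 libraries, with adjusted p up to 0.18. HSF1, at -0.08 and not called, was called lower in KO with transcript sums (-0.21, adjusted p = 0.038).

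Set against each other, CB-103 and GSI, which are unrelated compounds at doses not given here, left the members at different levels. In NT cells 7 were higher with CB-103 and 1, HSPE1, was lower, where 29.2% of all genes were called higher and 27.1% lower. HSPA8 overlapped between the inhibitors in NT cells (95% interval of the log2 difference -0.25 to 0.15), as did HSPD1 (-0.07 to 0.29). In KO cells 9 were higher with CB-103 and HSPE1 was lower, where 24.7% of all genes were called higher and 23.1% lower. The sum of HSPA1A and HSPA1B was 5.12-fold higher with CB-103 than with GSI in NT cells and 9.0-fold higher in KO cells. In KO cells HSPD1 (0.24) lost its call without KO CB-103 replicate 1 or 3 or KO GSI replicate 2 or 3 (0.14 to 0.21), and HSF1 (0.21) without KO CB-103 replicate 1 (0.13) or 3 (0.16). HSPE1 was the member that was lower with CB-103 than with GSI in both genotypes.

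Within a library, ratios of partner genes do not depend on scaling between libraries. The log2 ratio of HSP90AA1 to HSP90AB1 in TPM was -0.07 ± 0.01 in NT DMSO, 0.44 ± 0.12 in NT CB-103 and 0.22 ± 0.09 in NT GSI. In KO cells it was -0.51 ± 0.04 with DMSO, 0.19 ± 0.06 with CB-103 and -0.22 ± 0.06 with GSI. The inducible form thus exceeded the constitutive one in every CB-103 library of both genotypes and in the NT GSI libraries, and was the less abundant in every DMSO library. The summed HSPA1A and HSPA1B level was 0.0455 of that of HSPA8 in NT DMSO and 0.0440 in KO DMSO. With CB-103 it reached 0.291 in NT and 0.252 in KO cells. The sum and HSPA8 were both higher in KO than in NT cells there, and their ratio was close and no higher in KO. HSPE1 to HSPD1 went from 0.785 to 0.502 with CB-103 in NT cells and from 0.840 to 0.601 in KO cells, without overlap. The ratios were not tested.

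**Figure D4:**
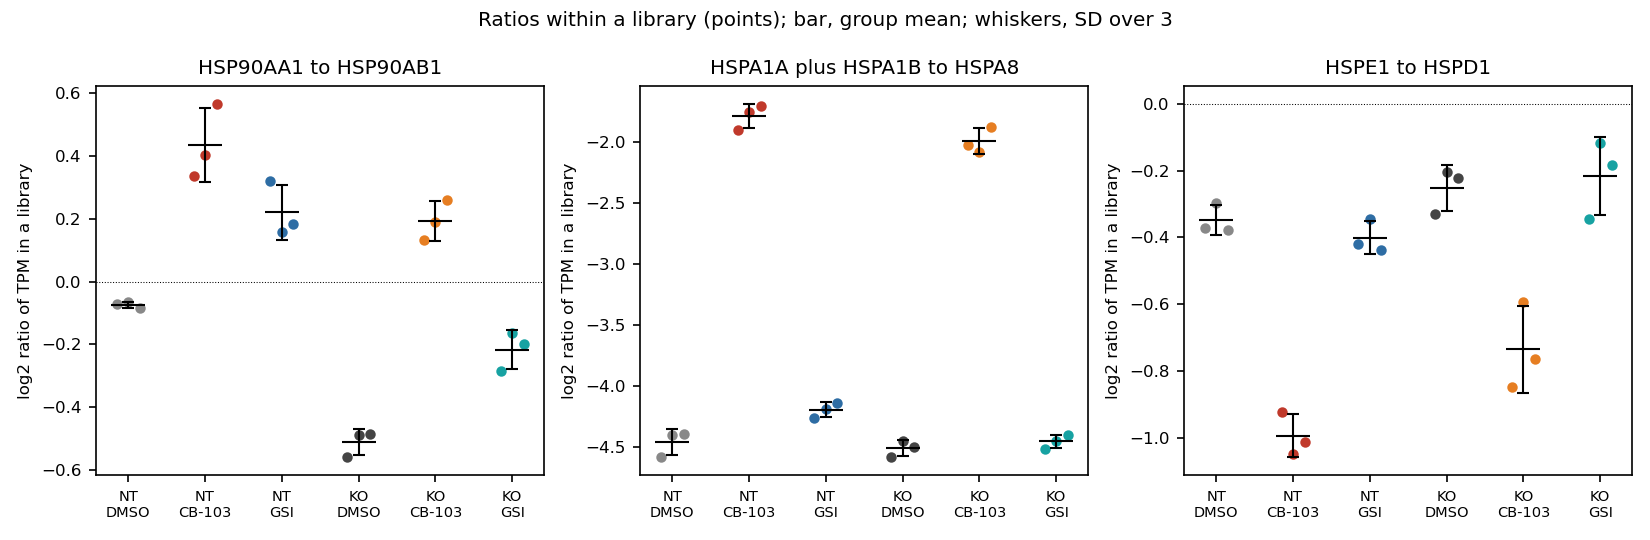
Log2 ratio of TPM between partner genes within a library (vertical axes) for the 6 groups (horizontal axes): HSP90AA1 to HSP90AB1, HSPA1A plus HSPA1B to HSPA8, and HSPE1 to HSPD1. Points are libraries, the bar is the mean and whiskers are the SD over 3; the middle panel separates CB-103 (group means of -1.78 and -1.99) from all other groups (-4.51 to -4.19).

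For HSP90AB1, HSP90AA1 and DNAJB1, 1 transcript held most of the gene's TPM. HSP90AB1-203 held 98.4% to 99.0% of the gene's TPM in the group means, HSP90AA1-201 held 89.7% to 91.5% and DNAJB1-201 held 94.3% to 98.5%, highest in the CB-103 groups. HSPE1 was split between HSPE1-202, at 49.97% ± 3.03 in NT DMSO and 57.8% ± 5.3 in NT CB-103, and the longer HSPE1-201. HSPH1 was spread over 3 transcripts, of which HSPH1-206 is annotated as a target of nonsense-mediated decay and held 28.6% to 39.1%. Shares are the authors' estimates, and were not tested.

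Around the 10 genes, other chaperone families were counted from lists chosen with results of these data known. Their counts are to be read against the shares of all genes called: with CB-103, 29.5% higher and 28.7% lower in NT and 24.9% and 23.7% in KO cells; with GSI, 9.67% and 15.0% in NT and 9.69% and 9.58% in KO cells. Among regulators of the heat shock factors and that family, 3 of 9 rose and 4 fell with CB-103 in NT cells, and 3 rose and 3 fell in KO cells, near the shares over all genes. VCP, a segregase that extracts ubiquitinated proteins, rose by 1.28 ± 0.06 and 1.04 ± 0.06 on the log2 scale. HSBP1, which binds HSF1 trimers, fell by 0.84 in NT and by 0.39 in KO cells. HSF2, a second heat shock factor, was lower in KO than in NT cells with DMSO (-0.42 ± 0.04, adjusted p = 1.5e-06).

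J-domain proteins listed under the cytosol and nucleus were taken without a check of their location. Of the 14 measured, 9 rose and 3 fell with CB-103 in NT cells, and 7 rose and 2 fell in KO cells. DNAJB4 rose by 2.05 ± 0.08 and 1.96 ± 0.08, and DNAJB2, which directs clients to the proteasome, by 1.85 ± 0.08 and 1.49 ± 0.08. Of the 10 other HSP70 and HSP110 genes, whose proteins are not all cytosolic, 4 rose in each genotype. HYOU1, which itself works in the endoplasmic reticulum, rose most, by 2.86 ± 0.07 and 2.38 ± 0.07, followed by HSPA13 with 1.42 ± 0.05 and 1.37 ± 0.05. HSPA9, the mitochondrial HSP70, rose by 1.00 ± 0.06 and 0.98 ± 0.06. The rise of HSPA9 went against the fall of HSPE1 and, in NT cells, of HSPD1, which work in the same compartment. With GSI, HSPA9 fell by 0.53 in NT and by 0.40 in KO cells, as did HSPA4, an HSP110, by 0.41 and 0.29.

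HSP70 co-chaperones were mixed with CB-103, with 4 of 8 higher and 3 lower in NT cells and 2 higher and 3 lower in KO cells. BAG3, an HSF1 target that links HSP70 to autophagy, rose by 0.59 ± 0.08 in NT and 0.62 ± 0.08 in KO cells, while BAG1 fell by 0.85 and 0.59. Of 15 HSP90 co-chaperones 3 rose and 6 fell in NT cells, and 3 rose and 4 fell in KO cells, also not far from the shares over all genes. FKBP4, an immunophilin of steroid receptor complexes, fell by 1.06 ± 0.07 and 0.99 ± 0.07. CHORDC1, an HSP90-binding protein, rose by 1.20 ± 0.08 and 0.92 ± 0.08. With GSI 8 of the 15 HSP90 co-chaperones fell and 2 rose in NT cells, and 7 fell and 1 rose in KO cells. Of the 8 HSP70 co-chaperones, 4 fell and 0 rose with GSI in NT cells, and 1 fell and 0 rose in KO cells. AHSA1, which stimulates the HSP90 ATPase, was lower in KO than in NT cells with DMSO (-0.59 ± 0.08, adjusted p = 4.2e-05). In that comparison 2 of the 15 HSP90 co-chaperones were called higher and 3 lower, where 9.78% of all genes were called higher and 11.7% lower.

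Mitochondrial chaperones and proteases rose for 6 and fell for 3 of 16 with CB-103 in NT cells, and rose for 5 and fell for 3 in KO cells, again near those shares. TRAP1, the mitochondrial HSP90, fell by 1.00 ± 0.06 and 0.73 ± 0.06. With GSI 11 of these 16 fell in NT cells (median -0.32, beside 0.01 over all genes) and 7 in KO cells, GRPEL1, the nucleotide exchange factor of HSPA9, by 0.84 and 0.54. The cytosolic chaperonin TRiC and prefoldin, which fold actin and tubulin, fell for 10 and rose for 1 of 14 with CB-103 in NT cells (median -0.37), and fell for 6 and rose for 1 in KO cells. CCT5, a TRiC subunit, fell by 0.81 ± 0.05 and 0.56 ± 0.05. With GSI 9 of the 14 fell in NT cells (median -0.37) and 6 in KO cells, where 2 rose.

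Of 11 measured small heat shock proteins and other known HSF1 targets, 6 rose and 2 fell with CB-103 in NT cells (median 0.24), and 8 rose and 2 fell in KO cells (median 0.53, beside -0.01 over all genes). ZFAND2A, a stress-inducible regulator of the proteasome, rose from 7.25 ± 0.35 CPM to 52.4 ± 3.5 CPM in NT cells (log2 fold change 2.85 ± 0.10) and by 2.24 ± 0.10 in KO cells. DEDD2 rose by 1.27 ± 0.06 and 1.33 ± 0.06. With GSI 1 of the 11 fell in NT cells, CACYBP, by 0.24, whereas in KO cells 3 rose, among them MRPL18, a mitochondrial ribosomal protein, by 0.16 ± 0.04. HSPB8, HSPB11, CRYAB, SERPINH1 and DNAJA4 were listed but not among the genes tested. Either the symbol was not matched or the gene did not pass the filter on low counts.

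Of the members, the sum of HSPA1A and HSPA1B had the widest span of group means, 3.16 on the log2 scale, ahead of DNAJB1 with 1.81 and HSPH1 with 1.54; HSPA8, HSPD1 and HSF1 had the narrowest, 0.70, 0.45 and 0.41. Over the 18 libraries, which fall into 6 groups, the genes outside the members with the most similar log2 CPM pattern to the HSPA1A and HSPA1B sum were SEC13 (Pearson r = 0.995), GOLT1B (0.992) and BET1L (0.991), out of 10418 genes at 5 CPM or more. For DNAJB1 they were FTL (0.997), ADAM17 (0.991) and CALU (0.989). For HSPH1 they were PSMD12 (0.983), STK40 (0.982) and PSMD1 (0.976). These values describe the difference between the CB-103 groups and the rest, which all of them share.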

How the data were processed

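Gene counts were deposited in 1 table of whole numbers, which the table's name gives as raw counts that the authors had rounded. Expected counts and TPM per transcript were deposited for each library, per the file headers. TPM were summed over a gene's transcripts. The sources used here do not give how the authors went from transcripts to genes. Salmon 1.4.0, HISAT2 2.2.1, FastQC 0.11.9 and bcl2fastq 2.20 are listed, with hg38 and no roles, per the submitters' processing notes. Libraries were polyA-selected and stranded, with paired reads of 75 bases, per the labels' protocols. GENCODE 29 matched all 206601 transcripts, and 58207 of 58735 identifiers had a symbol.

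Counts were filtered with filterByExpr, scaled by TMM (factors 0.954 to 1.03) and tested in edgeR 4.0.16 (R 4.3.3) with glmQLFit and glmQLFTest, 1 fit over 18 libraries with 12 residual degrees of freedom. P-values were adjusted by Benjamini-Hochberg over all 17346 genes in each of 11 comparisons, and a gene was called below 0.05. The common coefficient of variation was 0.0965. SE is the size of the log2 fold change divided by the root of F. The script was tested on simulated data. Members and lists were chosen with earlier results of these data known. Beside the members, PIK3R1, HES1, DTX1 and MYC, up to 3 called genes of each list, with at least 5 CPM and the largest change, could be named for each inhibitor against DMSO and for KO against NT with DMSO. Alternatives were DESeq2 1.42.0 size factors or its Wald test, no filter, only the groups compared, a replicate block, replicates 2 and 3 alone, transcript sums, no scaling factor, summing HSPA1A with HSPA1B, and each library left out.

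Whether replicate numbers pair the samples was checked from deviations around group means: in 7 of the 9 pairs of groups compared, same-numbered libraries correlated above 0.1 in every case, and the exceptions were NT CB-103 with NT GSI (lowest 0.088) and NT GSI with KO GSI (lowest 0.041). This check cannot settle whether the numbers pair the samples. Deviations around a mean of 3 libraries depend on each other, so a shift of replicate 1 alone can make all such correlations positive. For NT DMSO with KO DMSO, replicates 2 and 3 were not closest to their own number. The labels give no pairing. Blocked values stand beside a result where they change its call.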

Additional observations from a re-analysis of the deposited data

Results flagged for a closer look

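The response to CB-103 differed between KO and NT cells by the interaction test for 7 of the 10 members, all with a higher value in KO cells. The KO minus NT difference of the log2 response was 0.83 for HSPA8, 0.72 for HSPA1A, 0.61 for HSPA1B, 0.61 for HSP90AA1, 0.42 for HSP90AB1, 0.41 for HSPE1 and 0.31 for DNAJB1. HSPA8 is the member whose libraries moved in opposite directions, falling in NT and rising in KO cells. HSPA1A and HSPA1B share most of their sequence, so their values are not 2 separate observations. KO CB-103 replicate 2 had the lowest level of its group for each of these genes, and PIK3R1 mRNA did not separate the genotypes under CB-103 (adjusted p = 0.17). Without that library all 7 remained called, with HSPA8 at 0.89 and DNAJB1 at 0.36.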

How the results depend on the processing

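Of the members' 1848 values under the alternatives, 86 lost a call, 33 gained one and 1729 kept their side of the threshold; the causes were not tested. No called value changed sign, whereas 45 values that were not called did, over 16 pairs of gene and comparison, all with a log2 difference of at most 0.09 in size. Counts of members called higher in KO than NT cells with DMSO went from 0 to 2 with only the groups compared or no scaling factor and to 1 with the replicate block. Under GSI, members higher in KO than NT went from 3 to 1 with no count filter or with replicates 2 and 3 alone. HSF1 was the member lower in KO than NT under CB-103, and with transcript sums there were 0. With no scaling factor 1 member had a lower CB-103 response in KO. Leaving out single libraries gave 4 to 6 members lower with GSI in KO cells (7 with all), 1 to 4 lower in KO than NT with DMSO (3 with all) and 1 to 3 higher in KO than NT under GSI. The replicate block changed no other member's call than those given, except HSPA8 between KO and NT under GSI (-0.18, adjusted p = 0.032). Same-numbered libraries of those groups did not all correlate above 0.1. Same-numbered libraries were the closest in 29 of 45 cases. Over all genes, the count called for the GSI interaction, 484, was 1227 with the DESeq2 Wald test, 1291 with the replicate block, 997 with transcript sums, 314 with no scaling factor, 42 with replicates 2 and 3 alone, and 53 to 1505 with a library left out. All members passed the filter on low counts. Values for HSPA1A and HSPA1B, and to a smaller extent those for HSPE1 and HSPD1, are limited by shared sequence. The precision of all calls is limited by 3 libraries a group.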
